A study of Mus musculus with 9 samples.

Results

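The chemokine system of mouse primary macrophages was described at 3 oxygen conditions. The genes were the protein-coding genes with a symbol that begins with Ccl, Cxcl, Cx3cl, Xcl, Ccr, Cxcr, Cx3cr, Xcr or Ackr and a digit, without Cxcl16, and with a mean of at least 1 TPM over the 9 libraries (TPM, a unit that corrects for gene length and sums to the same total in every library). Described here are 20 such genes, 14 ligands and 6 receptors, among 57 genes of the family (35 ligands, 18 receptors and 4 atypical receptors) and 34866 genes in all.

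Chemokines are small secreted proteins that draw leukocytes along a gradient through G protein-coupled receptors. Macrophages are a source of CC chemokines such as Ccl2, which recruits monocytes through Ccr2, and Ccl3, which acts through Ccr1 among other receptors. Many chemokine genes lie in clusters and are induced by inflammatory signals through NF-kappaB, and some family members, Cxcr4 among them, are known targets of the hypoxia-inducible factors.

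All groups shared the culture medium: alpha-MEM, serum and L929-conditioned medium, which carries the growth factor CSF1 secreted by that fibroblast line. Standard oxygen cultures were kept so for 7 days, acute hypoxia cultures received 3 hours of 1% oxygen after standard oxygen, and chronic hypoxia cultures were held at 1% oxygen for 7 days. Each group had 3 biological replicates; the labels do not name a strain, the animals or the tissue the cells came from. The labels' descriptions carry digits that 1 library of each group shares, called here codes X, Y and Z; what they stand for is not stated, and values are given below in the order X, Y, Z.

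All 9 macrophage markers checked, among them Adgre1, Cd68, Csf1r and Lyz2, had a mean of at least 1 TPM, and their summed level, nearly all of it Lyz2, was 56607 to 74794 TPM per library. Among them Mertk, a receptor for apoptotic cells, ran from 2.21 to 3.37 TPM in code Z, against 21.8 to 33.3 TPM for codes X and Y. Mrc1, the mannose receptor, was at 0.247 to 0.697 TPM in code Z and, in codes X and Y, at 2.08 to 2.78 TPM in standard oxygen and acute hypoxia and at 27.2 and 39.0 TPM in chronic hypoxia. The rest of the list was mixed. In standard oxygen Adgre1, Cd68 and Lyz2 were also lower in code Z than in codes X and Y. Itgam, Csf1r, Cd14 and Fcgr1 were higher there, at 625, 513, 1379 and 63.2 TPM, against 481, 439, 908 and 30.3 in code X and 500, 457, 922 and 29.3 in code Y. None of these was above both other codes in every group. Genes with a mean of at least 1 TPM numbered 11065. The first principal component over them (36.9% of the variance) set the 3 code Z libraries apart from the other 6, and the second (25.4%) set chronic hypoxia apart. Of these genes, 19.7% had all 3 code Z values above or all below the other 6 libraries; 7 of the 20 chemokine and receptor genes (35%) did. Ccl9, Ccl25, Cx3cr1, Ccr2 and Ccr10 were higher in code Z, and Ccl6 and Ccl27a were lower. Ccr2 and Ccr10 reached a mean of 1 TPM only through code Z. In codes X and Y they ran from 0.333 to 1.03 TPM and from 0.280 to 0.821 TPM. Their place in this count was therefore favoured by the limit itself, which was also applied to all genes. Cxcl16, outside the rule, was at 0.097 to 0.336 TPM in the code Z libraries and at 18.0 to 25.7 TPM in the others.

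Markers of other cells moved with the code or the oxygen, and their part in the results was not tested. Of 5 monocyte markers 2 had a mean of at least 1 TPM; the list summed to 197 to 974 TPM in code Z and 43.3 to 81.2 TPM elsewhere, mostly Ly6c2, and by group to 45.5 to 246 TPM in standard oxygen, 43.3 to 197 in acute and 63.1 to 974 in chronic hypoxia. The 9 neutrophil markers (3 of them at a mean of at least 1 TPM) summed to 898 to 1595 TPM in standard oxygen, 941 to 1910 in acute and 260 to 585 in chronic hypoxia, nearly all of it S100a8; Retnlg was listed at 0, S100a9 did not exceed 0.231 TPM and Ly6g did not exceed 0.765 TPM. Of 4 endothelial or epithelial markers only Pecam1, which macrophages also express, had a mean of at least 1 TPM: the list summed to 10.9 to 22.0 TPM in standard oxygen, 15.3 to 25.7 in acute and 39.2 to 42.8 in chronic hypoxia, with Epcam and Krt8 at 0. Summed levels did not exceed 0.652 TPM for dendritic cell markers, 1.496 for T, B and NK cell markers, 0.327 for fibroblast markers and 0.114 for mast cell, basophil and eosinophil markers. In such bulk samples, fewer cells of a type and less RNA per cell cannot be told apart.

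CC ligands dominated. Ccl6, Ccl9, Ccl3 and Ccl2 held 77.6% to 88.9% of the summed TPM of the 14 ligands in each library. The ligands summed to 2457, 2437 and 3187 TPM in standard oxygen (codes X, Y, Z), to 1888, 1892 and 2209 in acute hypoxia and to 3230.2, 3232 and 1897 in chronic hypoxia, so acute hypoxia was below standard oxygen in every code while chronic hypoxia was above it in codes X and Y and below it in code Z. Few genes carried these sums. In acute hypoxia Ccl3 and Ccl4 together fell by more than the sum in every code. In chronic hypoxia Ccl6 alone rose by more than the sum in code X (694 to 1776 TPM) and code Y (733 to 1873 TPM). The other ligands together were lower there than in standard oxygen. The 6 receptors summed to 50.7, 46.7 and 169 TPM in standard oxygen, to 120.5, 110.3 and 202 in acute hypoxia and to 157, 138 and 283 in chronic hypoxia, so each code held the order standard oxygen, acute, chronic hypoxia. Ccr1 alone held that order in each code. Without Ccr1 the other receptors together were higher in acute than in chronic hypoxia in codes X and Y, and only code Z kept the order. Levels of individual genes are in the plot of TPM by library.

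**Figure D1:**
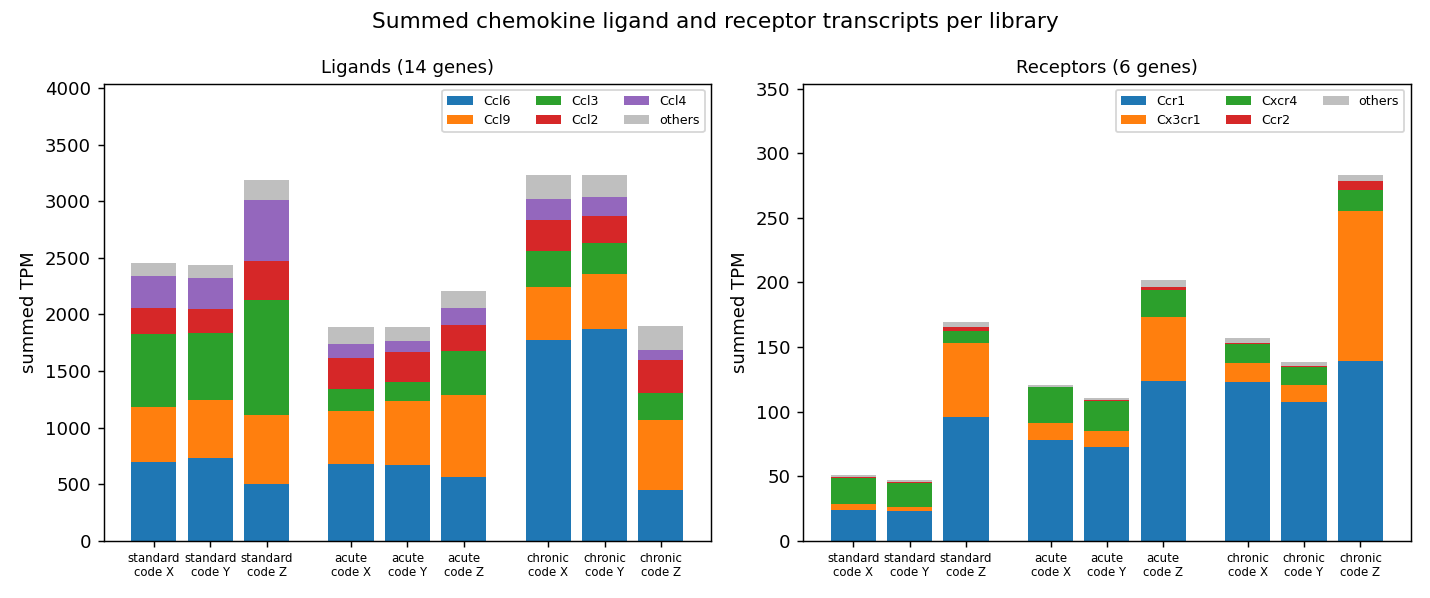
Summed TPM of the 14 ligands (left) and the 6 receptors (right) in each of the 9 libraries, with the share of the leading genes stacked; libraries are grouped by oxygen condition and marked by code X, Y or Z. Receptor sums run from 46.7 TPM in a standard oxygen library to 283 TPM in a chronic hypoxia library, and Ccr1 is the largest receptor component of every bar.

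**Figure D2:**
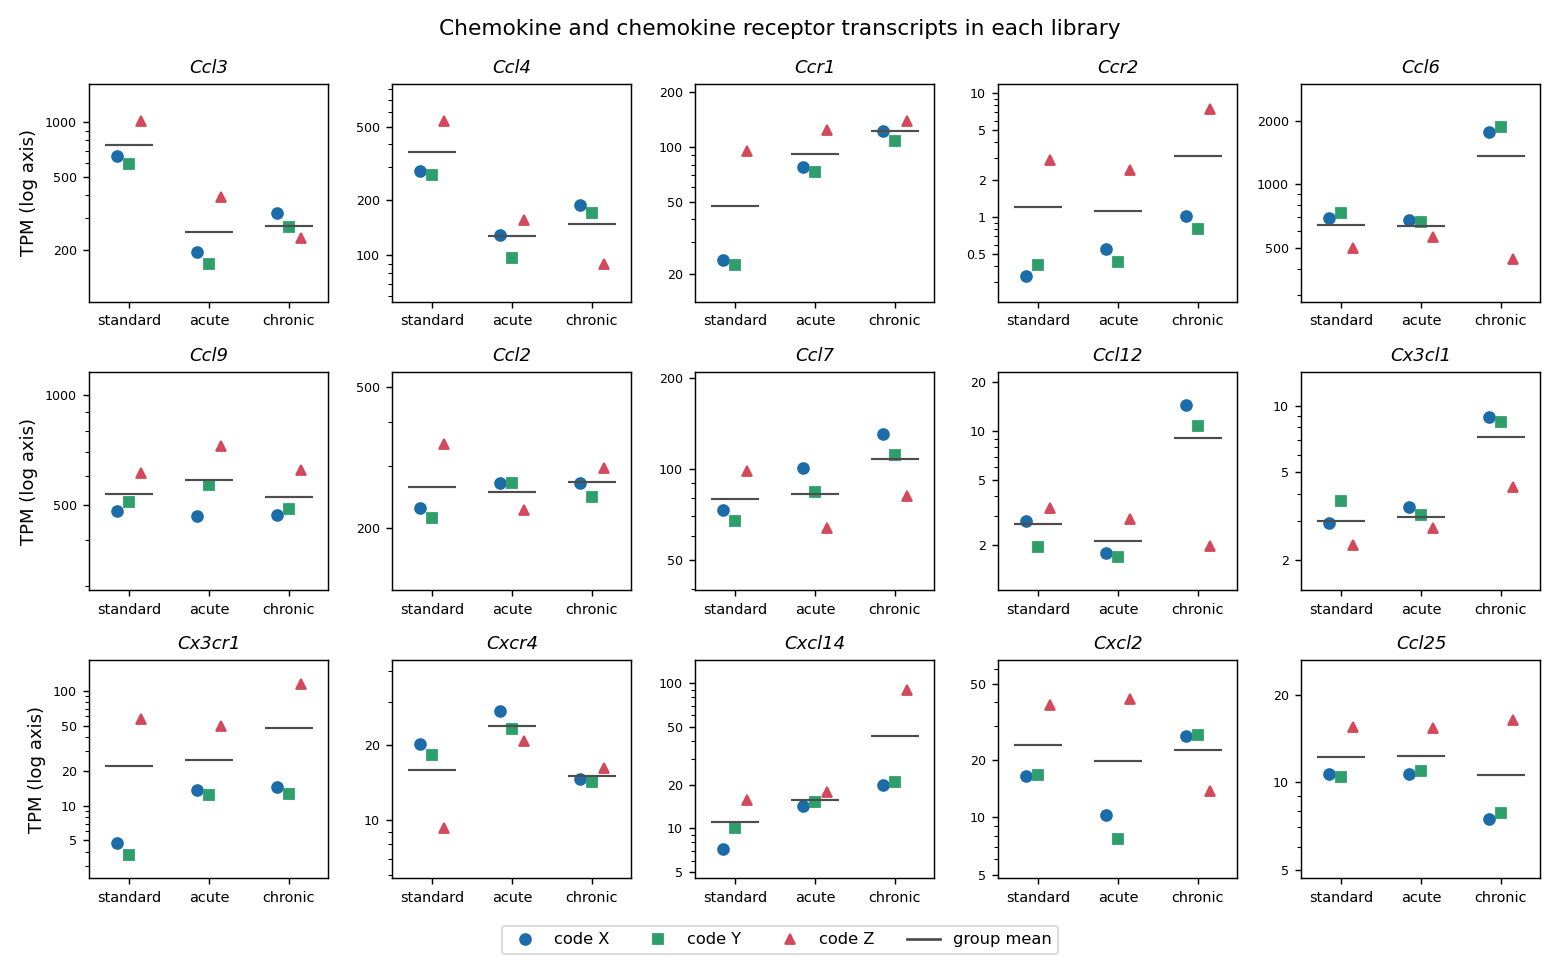
TPM on a log axis for 15 chemokine and receptor genes; each point is 1 library, its marker gives the code, and the horizontal line is the group mean. Ccl3 and Ccl4 are lower in both hypoxia groups than in standard oxygen, and code Z lies away from codes X and Y in several panels, Cx3cr1 among them.

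Two-sided limma tests on log2(TPM + 1) were fitted over all genes for each pair of groups, and a gene was called at an adjusted p under 0.05; fold changes on this scale understate the change of low genes. Because libraries of the same code deviated together, the fit with the code as a block is given wherever it changes a call. Acute against standard oxygen called 0 of the 20 genes without the block (2 had an unadjusted p under 0.05), against 0.0273% of all genes tested. With the block it called 2, both lower, where 0.71% of all genes were called, 0.655% higher and 0.0546% lower. Chronic against standard oxygen called 1 of 18 genes without the block, where 2.69% of all genes were called. With the block it called 5, 4 higher and 1 lower, where 18.4% of all genes were called, 15.1% higher and 3.3% lower. Chronic against acute hypoxia called 0 of 19 genes without the block (2 had an unadjusted p under 0.05; 0.695% of all genes were called). With the block it called 3, 2 higher and 1 lower, where 15.5% of all genes were called, 12.1% higher and 3.42% lower. Cxcl10 fell below the filter on low values in both comparisons with chronic hypoxia and Cxcl5 in the comparison with standard oxygen. Comparisons that share a group share its 3 libraries.

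The rescaled libraries (median-of-ratios, which takes the median of all genes from 0.16 to 0.00 for chronic against standard oxygen and from 0.14 to 0.00 for chronic against acute hypoxia) gave, with the code block, 2 called genes of 20, 4 of 18 and 1 of 19, where 0.519%, 11.5% and 9.81% of all genes were called. Rescaling changed the split of all genes called with the block from 1674 higher and 365 lower to 622 and 650 for chronic against standard oxygen, and from 1345 and 379 to 525 and 563 for chronic against acute hypoxia. Without the code Z libraries, on 2 libraries a group, 4 of 17 genes were called for acute against standard oxygen (2.95% of all genes), 13 of 17 for chronic against standard oxygen (21.1%) and 11 of 17 for chronic against acute hypoxia (16.3%). Fits without code Z that made or ended a call are given with each gene. Their p values measure the spread between codes X and Y, and not that among the 3 codes. Codes X and Y were close within groups. The median absolute log2 difference of the 20 genes was 0.10, 0.12 and 0.13 in standard oxygen, acute and chronic hypoxia. Between code Z and either other code it was 0.50 to 0.97. Over all genes these medians were 0.12 to 0.14 and 0.24 to 0.31. Within codes, the code Z difference had the opposite sign to codes X and Y in 8 of 20, 9 of 18 and 9 of 19 genes, where 30.4%, 18.6% and 19.6% of all genes did. The median log2 fold change of the genes was 0.04, 0.41 and 0.37 in the 3 comparisons, beside 0.01, 0.16 and 0.14 over all genes tested. For chronic against standard oxygen it was 0.54 over the receptors and 0.25 over the ligands.

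**Figure D3:**
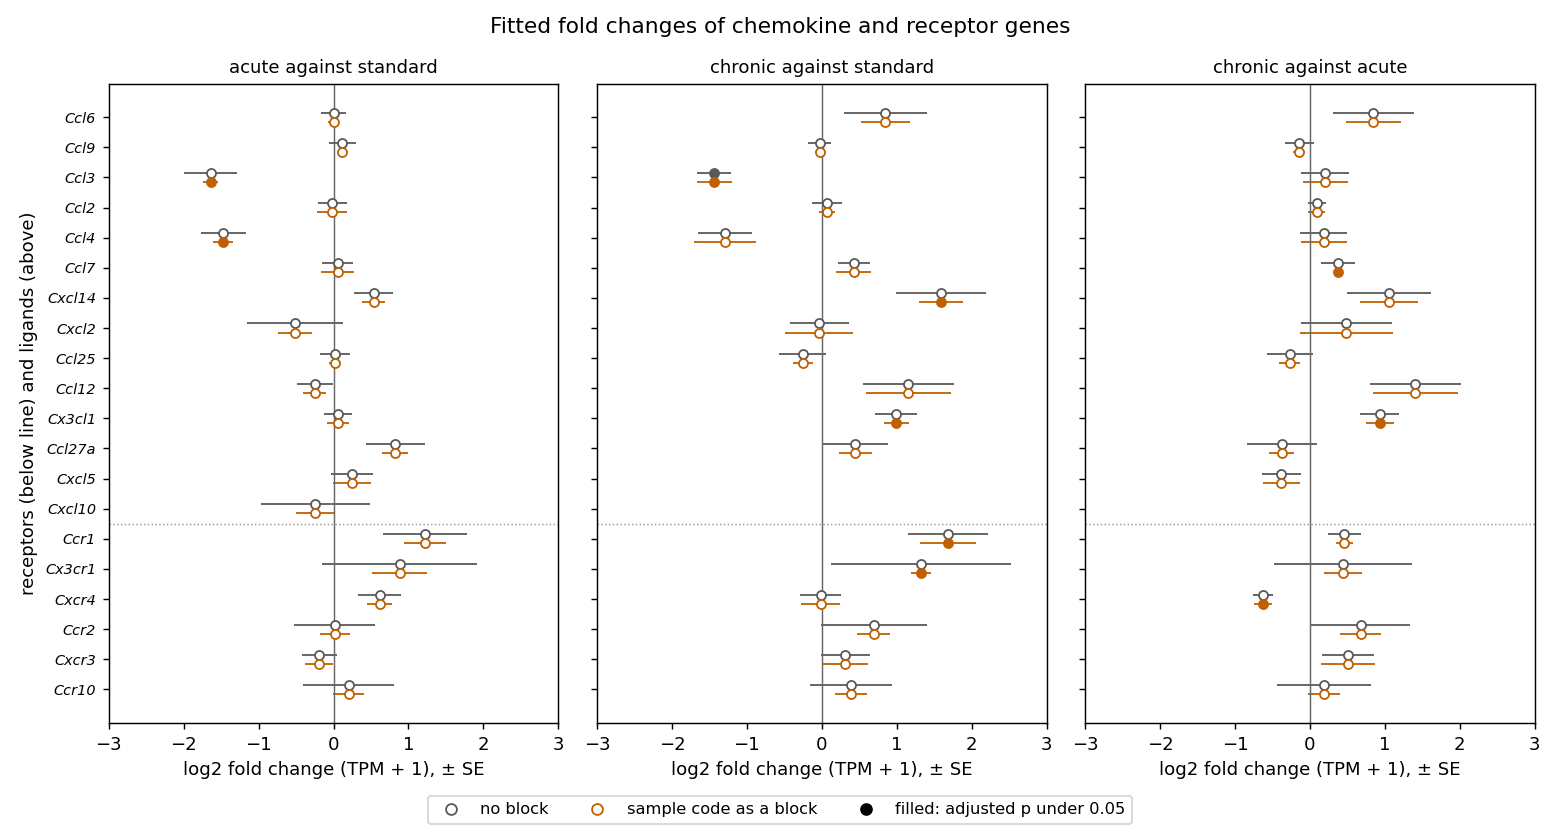
Log2 fold change on the log2(TPM + 1) scale with its standard error for each gene in the 3 comparisons, fitted without a block and with the sample code as a block; filled symbols mark an adjusted p under 0.05. Standard errors are smaller with the block for most genes, and the filled symbols are Ccl3 and Ccl4 for acute against standard oxygen, 5 genes for chronic against standard oxygen and 3 for chronic against acute hypoxia.

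Promoter windows of 250 bases before the RefSeq start (build GRCm38.p6) were found for 15 of the 20 genes, 18 windows in all since Ccl25 and Ccl27a have several starts. Ccl2, Ccl4, Ccl7, Ccr10 and Cxcl5 had no window, and of these Ccl4 and Ccl7 were called with the code block. Those of Ccl3, Ccr1, Cxcl14 and Cxcr4, only part of the called genes with a window, are printed in the direction of the gene, 5′ to 3′. Motif matches are in capitals. The windows were searched on both strands for ACGTG and GCGTG, core sequences of the hypoxia response element, and for the consensus kappaB motif. Over 32851 windows of the same length (27025 genes), 16.6%, 28.2% and 1.21% held them. Of the 18 windows 9, from 8 genes, held a match, none of them ACGTG. The windows with GCGTG numbered 9 and those with the kappaB motif 2. A match is a string of letters and not a bound site.

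Ccl3: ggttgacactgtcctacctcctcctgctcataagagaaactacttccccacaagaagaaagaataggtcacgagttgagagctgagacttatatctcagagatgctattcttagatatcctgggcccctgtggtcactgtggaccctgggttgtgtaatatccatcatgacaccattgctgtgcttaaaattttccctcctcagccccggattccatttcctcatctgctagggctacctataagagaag
Ccr1: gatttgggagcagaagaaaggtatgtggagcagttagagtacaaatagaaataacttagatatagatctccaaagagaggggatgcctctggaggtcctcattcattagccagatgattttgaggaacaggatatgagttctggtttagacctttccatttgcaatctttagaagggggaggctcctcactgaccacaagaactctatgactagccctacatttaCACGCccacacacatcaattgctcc
Cxcl14: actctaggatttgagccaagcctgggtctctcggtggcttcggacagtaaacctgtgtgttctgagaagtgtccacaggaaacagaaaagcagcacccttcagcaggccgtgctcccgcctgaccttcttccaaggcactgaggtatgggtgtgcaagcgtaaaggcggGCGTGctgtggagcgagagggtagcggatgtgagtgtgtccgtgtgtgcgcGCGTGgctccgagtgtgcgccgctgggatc
Cxcr4: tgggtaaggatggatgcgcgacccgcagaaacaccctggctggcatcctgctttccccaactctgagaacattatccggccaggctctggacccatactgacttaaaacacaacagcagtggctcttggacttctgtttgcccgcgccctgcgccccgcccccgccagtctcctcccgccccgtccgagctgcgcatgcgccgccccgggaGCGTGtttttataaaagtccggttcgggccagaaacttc

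The Ccl3 window (chr11:83649379-83649628, minus strand) held none of the motifs. Neither did the windows of Cx3cl1 and Cx3cr1, which were also called with the code block and are not printed. The Ccr1 window (chr9:123968693-123968942, minus strand) held GCGTG on the opposite strand, so that it reads as its complement, from 25 to 21 bases before the start. The Cxcl14 window (chr13:56296552-56296801, minus strand) held GCGTG at 81 to 77 and at 30 to 26 bases before the start, and the Cxcr4 window (chr1:128592300-128592549, minus strand) at 39 to 35. Cxcl2 and Cxcl10 were the genes with a kappaB match, at 97 to 88 bases (and, overlapping on the other strand, 96 to 87) and at 159 to 150 bases before the start.

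Ccl3 and Ccl4 (macrophage inflammatory proteins 1-alpha and 1-beta) were lower in both hypoxia groups. They lie next to each other on GRCm38 chromosome 11, Ccl3 (ENSMUSG00000000982) at 83647844 to 83649355 on the minus strand and Ccl4 (ENSMUSG00000018930) at 83662584 to 83664683 on the plus strand, 13.2 kb apart. Ccl3 was at 649.6, 594 and 1015 TPM in standard oxygen, at 196, 167 and 392 in acute hypoxia and at 317, 267 and 233 in chronic hypoxia. Every standard oxygen library was above every hypoxia library. The means were 753 ± 229, 252 ± 123 and 272 ± 42.4 TPM (SD, n = 3). In acute hypoxia Ccl3 was 3.32-, 3.55- and 2.59-fold lower than in standard oxygen within codes X, Y and Z, a log2 fold change of -1.64 with a standard error of 0.356 and a limma adjusted p of 0.252 without the block. With the block the standard error was 0.101 and the adjusted p 0.0117, and without code Z the adjusted p was 0.00672. In chronic hypoxia it was 2.05-, 2.22- and 4.36-fold lower within the codes, a log2 fold change of -1.43 ± 0.227 (SE) with an adjusted p of 0.0366 in limma without the block and 0.0231 with it. This was the only call without the block among the 18 genes, and leaving out standard oxygen replicate 1 or 3 or chronic hypoxia replicate 1 or 2 ended it (adjusted p 0.154, 0.123, 0.106 and 0.163), as did the title number as a block (0.137), no filter on low values (0.0796) and no trend (0.0507). In chronic against acute hypoxia Ccl3 had a log2 fold change of 0.20 with an adjusted p of 0.763 in limma; codes X and Y were higher and code Z lower, and without code Z it was 0.68 with an adjusted p of 0.0258.

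Ccl4 was at 287, 272 and 535 TPM in standard oxygen, at 129, 95.9 and 155 in acute hypoxia and at 186, 169.8 and 89.3 in chronic hypoxia, again with every standard oxygen library above every hypoxia library. The means were 365 ± 148, 127 ± 29.6 and 148 ± 51.9 TPM (SD, n = 3). In acute hypoxia the difference on the log2 scale was -1.47 ± 0.299 (SE), and the limma adjusted p was 0.223 without the block and 0.0299 with it; it was 0.116 when the block was fitted over all 9 libraries and 0.0244 without code Z. In chronic hypoxia it was -1.29 ± 0.364 and did not pass the limma test either way (adjusted p 0.112 and 0.0917), with a 5.99-fold lower level in code Z against 1.539- and 1.604-fold in codes X and Y. Without code Z it was called at -0.65 (adjusted p 0.00838), and the rise from acute to chronic hypoxia at 0.67 (adjusted p 0.0460). With code Z that rise was 0.19 and not called (limma adjusted p 0.780, and 0.700 with the block). The ratio of Ccl3 to Ccl4 stayed between 1.52 and 2.61 in all 9 libraries. Ccl3 and Ccl4 were the 2 genes of the 20 with non-overlapping lower values in acute against standard oxygen (4.85% of all genes) and the 2 of 18 in chronic against standard oxygen (5.39% of all genes).

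Ccr1 (ENSMUSG00000025804), a receptor for Ccl3 and the most abundant of the 6 receptors, had higher values in chronic hypoxia. It lies on chromosome 9 at 123962124 to 123968692. Ccr1 was at 23.8, 22.6 and 95.7 TPM in standard oxygen, at 77.6, 72.7 and 124 in acute hypoxia and at 123, 108 and 139.5 in chronic hypoxia. The standard oxygen code Z library was above the acute hypoxia libraries of codes X and Y, while all chronic hypoxia libraries were above all standard oxygen libraries. The means were 47.4 ± 41.9, 91.4 ± 28.4 and 123 ± 16.0 TPM (SD, n = 3). Chronic against standard oxygen gave 5.16-, 4.76- and 1.46-fold higher values within codes X, Y and Z and a log2 fold change of 1.69 ± 0.533 (SE), with a limma adjusted p of 0.133 without the block, 0.0424 with it and 0.0677 with the block and rescaling. Without standard oxygen replicate 2 (code Z) it was 2.35, with an adjusted p of 0.00398 and no block. Without all code Z libraries it was 2.26 with an adjusted p of 0.00138, and 0.61 with an adjusted p of 0.0188 against acute hypoxia. Chronic against acute hypoxia with all codes gave 0.46 and was not called (limma adjusted p 0.289, and 0.0503 with the block). Acute hypoxia gave 3.26-, 3.22- and 1.30-fold higher values; the log2 fold change was 1.23 ± 0.559 and did not pass the limma test (adjusted p 0.760, and 0.175 with the block), but passed without code Z (1.65, adjusted p 0.00432).

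Ccl6 and Ccl9, a neighbouring pair of rodent CC ligands of Ccr1 on chromosome 11 (83587882 to 83593087 and 83572919 to 83578636, both on the minus strand), were the most abundant members on average. Ccl6 was at 694, 733 and 499 TPM in standard oxygen, at 679.6, 665 and 563 in acute hypoxia and at 1776, 1873 and 447 in chronic hypoxia. Relative to standard oxygen, chronic hypoxia was 2.56- and 2.55-fold higher in codes X and Y, and code Z was 1.12-fold lower. The log2 fold change of 0.85 ± 0.551 (SE) did not pass the limma test (adjusted p 0.406, and 0.134 with the block). Without code Z it was 1.35 with an adjusted p of 0.0014, and 1.44 with an adjusted p of 0.00208 against acute hypoxia. The difference from acute hypoxia with all codes was 0.85 and not called (limma adjusted p 0.416, and 0.168 with the block). Ccl9 was at 483, 509 and 614 TPM in standard oxygen, at 468, 568 and 724 in acute hypoxia and at 470.1, 487 and 624 in chronic hypoxia. Its group means (535 ± 69.0, 587 ± 129 and 527 ± 84.4 TPM; SD, n = 3) differed by less than the replicate spread.

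The monocyte-recruiting ligands Ccl2, Ccl7 and Ccl12 form another part of the chromosome 11 cluster, from Ccl2 at 82035571 to 82037453 to Ccl12 at 82101845 to 82103400. Ccl2 was at 228, 214 and 345 TPM in standard oxygen, at 269, 268 and 225 in acute hypoxia and at 268, 246 and 295 in chronic hypoxia; its group means of 262, 254 and 269.8 TPM differed by less than the standard oxygen SD of 71.8 TPM. Ccl7 was at 72.9, 67.0 and 98.1 TPM in standard oxygen, at 100.3, 84.1 and 63.6 in acute hypoxia and at 131, 111 and 81.2 in chronic hypoxia. Chronic against acute hypoxia gave 1.30-, 1.32- and 1.28-fold higher Ccl7 within codes X, Y and Z although the groups overlapped. The log2 fold change was 0.37, with a standard error of 0.229 and a limma adjusted p of 0.4002 without the block and of 0.0653 and 0.0252 with it; the adjusted p was 0.0968 with rescaling and the block, 0.251 with the block fitted over all 9 libraries and 0.101 without code Z, so the call rested on the block in the 6 libraries. Against standard oxygen Ccl7 was called without code Z (0.78, adjusted p 0.0114), where code Z went the other way. With code Z it was 0.43 and not called (limma adjusted p 0.297, and 0.243 with the block).

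Ccl12 was low in standard oxygen and acute hypoxia in every code and high only in 2 of the chronic hypoxia libraries. It was at 2.79, 1.94 and 3.37 TPM in standard oxygen, at 1.77, 1.69 and 2.89 in acute hypoxia and at 14.5, 10.7 and 1.97 in chronic hypoxia. In chronic against standard oxygen the log2 fold change of 1.16 ± 0.603 (SE) did not pass the limma test (adjusted p 0.308, and 0.201 with the block). Without code Z it was 2.01 with an adjusted p of 0.00594, and 2.31 with an adjusted p of 0.00464 against acute hypoxia. The difference from acute hypoxia with all codes was 1.41 and not called (limma adjusted p 0.249, and 0.146 with the block). The ratio of Ccl2 to Ccl12 was 81.5, 110 and 102 in standard oxygen, 152, 159 and 77.9 in acute hypoxia and 18.5, 22.9 and 150 in chronic hypoxia. Ccr2, the receptor for these ligands, was scarce: 0.333, 0.408 and 2.90 TPM in standard oxygen, 0.553, 0.434 and 2.40 in acute hypoxia and 1.03, 0.803 and 7.44 in chronic hypoxia. Within each code its chronic hypoxia value was above the standard oxygen value, but passed no test (limma adjusted p 0.597, and 0.0939 with the block). Ccr2 followed the monocyte marker Ly6c2 in being highest in code Z, where Ly6c2 was at 243, 194 and 969 TPM in standard oxygen, acute and chronic hypoxia.

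Cx3cl1 (fractalkine, a membrane-anchored chemokine) and its receptor Cx3cr1 both had higher values in chronic hypoxia than in standard oxygen within every code. Cx3cl1 was at 2.93, 3.71 and 2.34 TPM in standard oxygen, at 3.46, 3.19 and 2.79 in acute hypoxia and at 8.86, 8.42 and 4.28 in chronic hypoxia, without overlap between chronic hypoxia and either other group. The means were 3.00 ± 0.687, 3.15 ± 0.340 and 7.19 ± 2.53 TPM (SD, n = 3). Against standard oxygen the difference on the log2 scale was 0.99 ± 0.283 (SE), with a limma adjusted p of 0.114 without the block and 0.0249 with it. Against acute hypoxia it was 0.93 ± 0.264, with 0.132 and 0.0333, and 0.0582 with the block and rescaling. Leaving out chronic hypoxia replicate 3 (code Z) gave calls without the block (adjusted p 0.0328 and 0.0302), as did leaving out all of code Z (0.00971 and 0.00853).

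Cx3cr1 differed more between codes than between oxygen conditions. Its span overlaps several genes, among them Csrnp1, Gorasp1 and Xirp1 on the same strand and Ttc21a and Wdr48 on the other. The part of this overlap in its level was not tested. Cx3cr1 was at 4.74, 3.74 and 57.6 TPM in standard oxygen, at 13.7, 12.5 and 49.1 in acute hypoxia and at 14.7, 12.7 and 116 in chronic hypoxia. Code Z was above the others in every group, while chronic hypoxia was 3.10-, 3.39- and 2.01-fold higher than standard oxygen within codes X, Y and Z. The group means of 22.0 ± 30.8, 25.1 ± 20.8 and 47.6 ± 58.9 TPM (SD, n = 3) overlapped widely. The log2 fold change of 1.32 had a standard error of 1.201 and a limma adjusted p of 0.550 without the block, and of 0.131 and 0.0111 with it; without code Z it was 1.49 with an adjusted p of 0.00567. Single libraries moved the value without the block: it was 0.325 without chronic hypoxia replicate 3 and 2.49 without standard oxygen replicate 2, both of code Z, and 0.811 and 0.673 without standard oxygen replicate 1 or 3. Acute hypoxia was higher than standard oxygen in codes X and Y, where it was called (1.44, adjusted p 0.0172), and 1.17-fold lower in code Z. With all codes that difference was 0.88 and not called (limma adjusted p 0.9997, and 0.375 with the block). Chronic hypoxia was 1.07-, 1.01- and 2.35-fold of acute hypoxia within codes X, Y and Z. Its log2 fold change of 0.44 was not called (limma adjusted p 0.823, and 0.267 with the block).

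Cxcr4, the receptor for Cxcl12, was highest in acute hypoxia. It lies on chromosome 1 at 128588199 to 128592293 (ENSMUSG00000045382). Its levels were 20.2, 18.3 and 9.33 TPM in standard oxygen, 27.5, 23.3 and 20.9 in acute hypoxia and 14.7, 14.2 and 16.3 in chronic hypoxia, so all acute hypoxia libraries were above all others, the lowest by a small margin. The means were 16.0 ± 5.81, 23.9 ± 3.37 and 15.04 ± 1.10 TPM (SD, n = 3). Chronic hypoxia was 1.88-, 1.65- and 1.28-fold lower than acute hypoxia within codes X, Y and Z, a log2 fold change of -0.63 ± 0.132 (SE), with a limma adjusted p of 0.0806 without the block and 0.0330 with it. The adjusted p was 0.0777 when the block was fitted over all 9 libraries, which ended the call, and 0.0160 without code Z. The difference between acute hypoxia and standard oxygen was not called (log2 fold change 0.61 ± 0.282, limma adjusted p 0.765, and 0.235 with the block). Chronic hypoxia was called lower than standard oxygen without code Z (-0.39, adjusted p 0.0492), while code Z was higher. With all codes that difference was -0.01 and not called (limma adjusted p 0.982, and 0.972 with the block). Cxcr4 was the 1 gene of 20 with non-overlapping higher values in acute than in standard oxygen, beside 7.63% of all genes, and the 1 of 19 with non-overlapping lower values in chronic than in acute hypoxia, beside 5.5%.

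Cxcl14, a CXC chemokine that attracts monocytes and dendritic cell precursors, was highest in chronic hypoxia. It lies on chromosome 13 at 56288643 to 56296551 (ENSMUSG00000021508). It was at 7.23, 10.1 and 15.7 TPM in standard oxygen, at 14.2, 15.2 and 17.8 in acute hypoxia and at 19.8, 20.9 and 90.0 in chronic hypoxia. All chronic hypoxia libraries were above all others, and the code Z library of that group was far above its 2 partners. The means were 11.0004 ± 4.30, 15.7 ± 1.88 and 43.6 ± 40.2 TPM (SD, n = 3). The log2 fold change against standard oxygen was 1.59 ± 0.597 (SE), at a limma adjusted p of 0.184 without the block and 0.0288 with it, and values were 2.75-, 2.07- and 5.74-fold higher within codes X, Y and Z. It was 0.892 without chronic hypoxia replicate 3 (code Z, adjusted p 0.159), and 1.16 with an adjusted p of 0.0130 without all of code Z. There the difference from acute hypoxia was also called (0.44, adjusted p 0.0382). With all codes the difference from acute hypoxia was 1.05 and not called (limma adjusted p 0.328, and 0.116 with the block). Cxcl14, Ccr1 and Cx3cl1 were the 3 genes of 18 with non-overlapping higher values in chronic than in standard oxygen (24.2% of all genes), and all but Ccr1 had them also against acute hypoxia (2 of 19, beside 22.3%).

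Cxcl2, a neutrophil attractant, was at 16.4, 16.7 and 38.5 TPM in standard oxygen, at 10.2, 7.64 and 41.4 in acute hypoxia and at 26.4, 26.9 and 13.8 in chronic hypoxia. In codes X and Y it was higher in chronic than in standard oxygen (1.62-fold in each), and in code Z it was 2.79-fold lower; the log2 fold change of -0.03 did not pass the limma test (adjusted p 0.972). Without code Z it was 0.66 with an adjusted p of 0.00958, and 1.49 with an adjusted p of 0.00733 against acute hypoxia. The difference from acute hypoxia with all codes was 0.49 and not called (limma adjusted p 0.691, and 0.616 with the block). Cxcl2 shares 4.17% of its 75-base stretches with Cxcl3, which did not reach the level of the members. Ccl25, a thymus- and gut-associated ligand, was at 10.7, 10.5 and 15.5 TPM in standard oxygen, at 10.7, 10.95 and 15.4 in acute hypoxia and at 7.48, 7.83 and 16.4 in chronic hypoxia, with no call in the 3 comparisons with or without the block. Without code Z chronic hypoxia was called lower than standard oxygen (-0.42, adjusted p 0.04996) and than acute hypoxia (-0.45, adjusted p 0.0489). Its span overlaps Elavl1 on the other strand, and whether reads were counted by strand is not given in the sources used here.

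**Figure D4:**
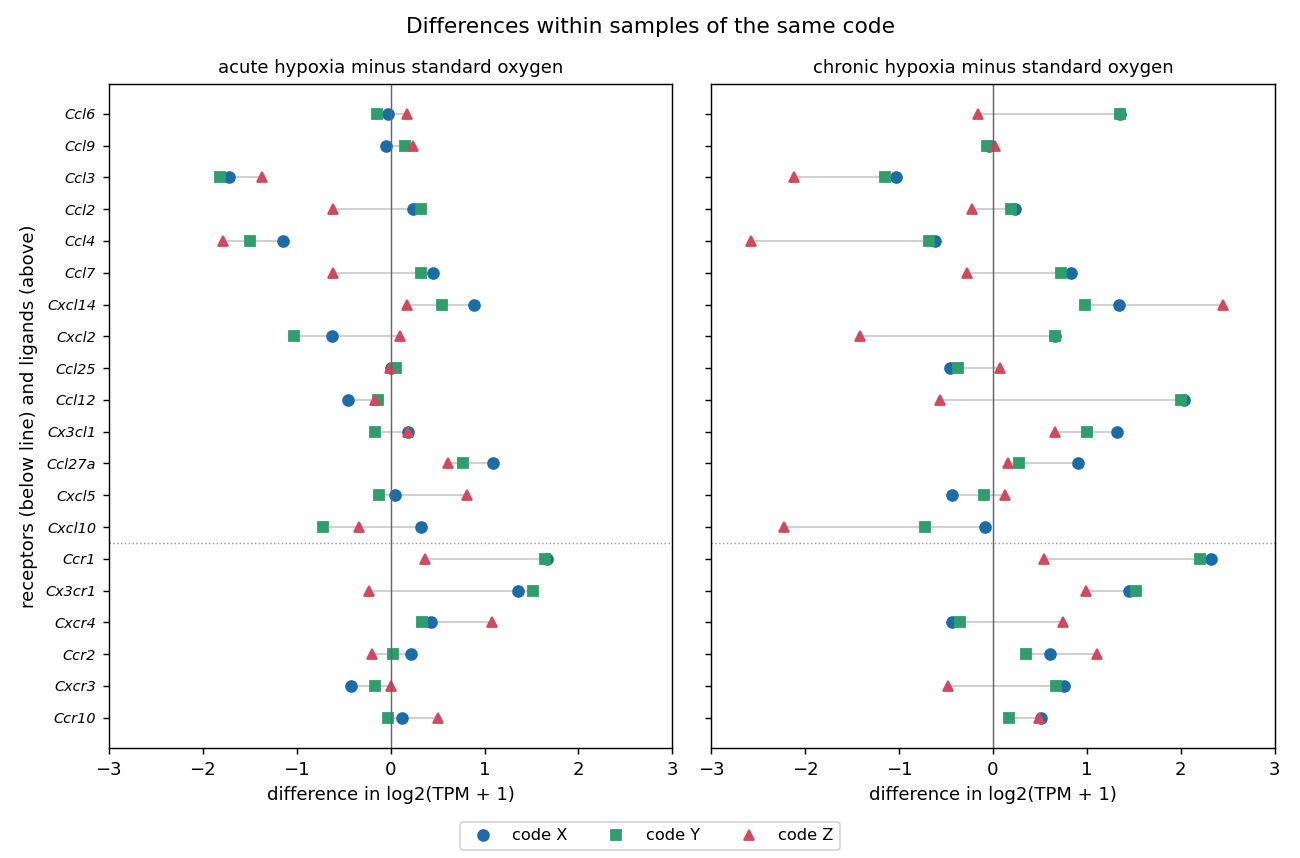
Differences on the log2(TPM + 1) scale between acute hypoxia and standard oxygen (left) and between chronic hypoxia and standard oxygen (right) for the 20 genes, 1 point per code. Both comparisons share the standard oxygen libraries. Ccl3 and Ccl4 are below 0 in all codes in both, and Ccl6, Ccl12 and Cxcl2 have code Z on the other side of 0 from codes X and Y in chronic hypoxia.

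Within codes, 4 genes (Ccr1, Cxcl14, Cxcr4 and Ccl27a) were higher in acute than in standard oxygen in all 3 codes and 3 (Ccl3, Ccl4 and Ccl12) were lower, of 20, beside 20.9% and 16.9% of all genes. In chronic against standard oxygen 7 of 18 were higher in all 3 codes (Ccr1, Cx3cr1, Cxcl14, Cx3cl1, Ccl27a, Ccr2 and Ccr10) and 2 lower (Ccl3 and Ccl4), beside 46.9% and 12.6% of all genes. In chronic against acute hypoxia 6 of 19 were higher and 2 lower (Cxcr4 and Ccl27a), beside 43.5% and 12.9%. These directions were counted without a test.

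The other members were near the limit of the rule. Ccl27a, a skin-associated ligand of Ccr10, ran from 0.597 to 4.603 TPM, and 57.8% of its 75-base stretches occur in Gm13306, Gm20878 or Gm21586, so its level is uncertain. Ccr10 ran from 0.280 to 3.56 TPM with all code Z values above the others, and its span overlaps Cntnap1 on the other strand. Cxcr3, the receptor for interferon-induced CXC ligands, ran from 0.732 to 2.91 TPM. Cxcl5, a neutrophil attractant, ran from 0.377 to 1.55 TPM. Cxcl10, an interferon-induced ligand of Cxcr3 whose span overlaps Art3 on the other strand, was at 0.141, 0.782 and 4.33 TPM in standard oxygen, at 0.428, 0.0828 and 3.23 in acute hypoxia and at 0.0799, 0.0838 and 0.142 in chronic hypoxia. None of these 5 was called in a comparison that tested it, with or without the block; without code Z Cxcr3 was called for chronic against standard oxygen (0.71, adjusted p 0.0489) and against acute hypoxia (1.01, adjusted p 0.0320). Cxcl10 (mean 1.03 TPM) and Cxcl5 (1.08 TPM) stood just inside the limit of 1 TPM, and Ccl5 (0.999 TPM) and Cxcr1 (0.598 TPM) just outside, followed by Ccl24, Ccr3 and Ackr4. Ccl5 was highest in the standard oxygen code Z library, at 4.08 TPM, and ran from 0.166 to 1.79 TPM elsewhere. Of the 37 genes below the limit 13 were listed at 0 in all 9 libraries, among them Cxcl12, Ccl17, Ccl20, Ccr7 and Ccr6.

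A list of 46 genes covered chemokine receptor signalling and its modulators (G proteins, arrestins, kinases, integrins and regulators). It also held the chemokines Pf4 and Cxcl16, which the rule for members left out. The list had 0 of 42 tested genes called in acute against standard oxygen with or without the block. In chronic against standard oxygen 1 of 41 was called without the block (2.44%, beside 2.69% of all genes). That gene was Ccrl2, a non-signalling receptor that binds chemerin. It fell from 15.2 ± 0.872 to 4.85 ± 2.01 TPM (SD, n = 3, log2 fold change -1.53, limma adjusted p 0.0470). With the block 14 were called higher and 1 lower (36.6% of those tested, beside 18.4% of all genes). Among them were Pf4, a platelet and macrophage chemokine (log2 fold change 2.27), Rgs14 (0.76) and Rac1 (0.64). The list's median was 0.28 and that of all genes 0.16. All genes also leaned this way with the block, 15.1% called higher and 3.3% lower, and after rescaling the split was 622 higher and 650 lower. This list and those below were not counted in the rescaled fits. In chronic against acute hypoxia 0 of 42 were called without the block and 15 with it, 14 higher and 1 lower (35.7%, beside 15.5% of all genes, 12.1% higher and 3.42% lower). Pf4 was at 25.5, 27.3 and 1.65 TPM in chronic hypoxia and did not exceed 2.67 TPM in the other groups.

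Among 25 genes of NF-kappaB and related regulators 23 were tested. Nfkbid, which encodes the nuclear inhibitor IkappaBNS, was the 1 gene called in acute against standard oxygen without the block (4.35% of the 23, beside 0.0273% of all genes). It fell from 121 ± 10.9 to 48.4 ± 2.65 TPM (SD, n = 3, log2 fold change -1.30, limma adjusted p 0.0244). Jun was added with the block (1.03), which made 8.7% of the 23, beside 0.71% of all genes. In chronic against standard oxygen Nfkbid (-1.57) and Zfp36l1, an mRNA-decay factor (2.22), were called without the block (8.7% of the 23, beside 2.69% of all genes). With the block 10 genes were called, 5 higher and 5 lower (43.5%, beside 18.4% of all genes). In chronic against acute hypoxia 0 were called without the block and 9 with it, 4 higher and 5 lower (39.1%, beside 15.5%). Of 15 interferon-inducible genes none was called without the block in the 3 comparisons; with it Irf8 was called in chronic against standard oxygen (0.71; 6.67% of the 15, beside 18.4% of all genes) and Irf7 in chronic against acute hypoxia (-1.56; 7.14% of the 14 tested, beside 15.5%). The interferon list's median in chronic against standard oxygen was -0.73 over the 15 genes. Without code Z only 11 of them passed the filter on low values, with a median of 0.08, so the 2 medians are not over the same genes.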

How the data were processed

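RNA from 9 cultures was sequenced as paired reads of 75 bases, per the labels' protocols. FastQC, STAR, featureCounts and the build GRCm38 are named in the submitters' processing notes, without versions or roles. The authors deposited TPM for 34866 genes in 3 tables, which held the same values for each library; TPM carries no library size, so the depth is unknown and no count test was used. Symbols and positions came from GENCODE M21 (GRCm38; 34582 identifiers matched). Each comparison was fitted on its 6 libraries with limma 3.58.1 in R 4.3.3 (eBayes with trend) on log2(TPM + 1) for genes with a mean of at least 1 TPM, with Benjamini-Hochberg adjustment over all genes tested; the script was tested on simulated data.

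Codes come from shared digits in the descriptions. Deviations from the group means correlated at 0.378 to 0.633 between libraries of the same code (9 pairs), and 18 of 18 best partners shared a code; title numbers, which pair acute and chronic hypoxia as the codes do, gave a mean of 0.0941 over 9 pairs. Code X was replicate 1 of each group; code Y was replicate 2 of both hypoxia groups and 3 of standard oxygen; code Z was replicate 3 of both hypoxia groups and 2 of standard oxygen.

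1 item of the family is not reported here and enters no count or sum of members. The other genes of the rule are all named. Values in every library are given for those with a mean of at least 10 TPM or a call, and for a few others; of each pathway list at most 4 called genes per comparison, those with the largest fold changes, are named. Members, lists and tests were chosen with earlier results of these data known. Alternatives covered the pseudocount (0.1, 5), the low-value filter, the trend, rescaling, both blocks, all 9 libraries in 1 fit and leaving libraries out.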

Additional observations from a re-analysis of the deposited data

How the results depend on the processing

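The 10 fold changes of named genes followed here were chosen because they were called without a block or with the code block. All 180 values under the alternatives kept their sign. Changing the block, the trend or the low-value filter leaves a fold change as it was, so those settings could not turn a sign. Of these fold changes 9 were not called without a block, and by that choice the code block called all 9. Leaving out code Z called all but Ccl7 in chronic against acute hypoxia. The code block over 9 libraries lost Ccl4 in acute against standard oxygen and Ccl7 and Cxcr4 in chronic against acute hypoxia (adjusted p 0.116, 0.251 and 0.0777). The counts of called genes depended on the block and on code Z. With the replicate block by title number, 0 chemokine and receptor genes were called in chronic against standard oxygen and 3 in chronic against acute hypoxia, and 0, 1 and 1724 of all genes in acute against standard oxygen, chronic against standard oxygen and chronic against acute hypoxia. The replicate block by sample code, in the same order, called 2, 5 and 3 chemokine and receptor genes and 78, 2039 and 1724 of all genes; fitted over 9 libraries it called 1, 6 and 1 and 204, 2909 and 2450, and with rescaling 2, 4 and 1 and 57, 1272 and 1088. Without a block the counts were 0, 1 and 0 and 3, 298 and 77. Without the code Z libraries they were 4, 13 and 11 and 319, 2300 and 1788. With no filter on low values, the chemokine and receptor count was 0 in chronic against standard oxygen, and all-gene counts were 120 there and 7 in chronic against acute hypoxia. Without the trend, they were 0 for the chemokine and receptor genes in chronic against standard oxygen, and 5, 166 and 25 for all genes. Rescaling gave 21 for all genes in acute against standard oxygen, and 9 libraries in 1 fit gave 25, 764 and 415. In chronic against standard oxygen rescaling moved the split of all genes called from 232 higher of 298 to 111 higher of 227; in chronic against acute hypoxia it moved from 61 higher of 77 to 29 higher of 73. Leaving out 1 replicate at a time gave 0 chemokine and receptor genes in acute against standard oxygen, 0 to 4 in chronic against standard oxygen (4 without chronic replicate 3) and 0 to 3 in chronic against acute hypoxia (3 without chronic replicate 3), and 0 to 33, 1 to 522 and 1 to 3.1e+02 (rounded) of all genes. Depth is unknown, so no limit of detection could be set for genes listed at 0.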
